A study of Mus musculus with 12 samples.

Results

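The major urinary protein genes Mup1, Mup3, Mup7, Mup12, Mup16, Mup20 and Mup21 were followed in the livers of wild-type and Mlkl-/- mice fed chow or a high-fat diet. These 7 genes were taken by name, through their Ensembl identifiers, from a count table of 51912 identifiers, and all 7 passed the filter on low counts. The table also holds 15 other Mup genes annotated as protein coding and 27 Mup pseudogenes, 49 Mup loci in all.

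The 12 libraries came from 12 animals, as the labels number them, in 4 groups of 3 livers. Mice of either genotype were 8 to 9 weeks old when the diets began, and then ate either chow, the normal diet (ND), or food rich in fat (HFD), of which fat made up 36% and lipid supplied 59% of the energy. The groups are wild-type ND, Mlkl-/- ND, wild-type HFD and Mlkl-/- HFD. The sample labels put the time on diet at 25 weeks, and the series text at 16 to 25 weeks. The animals were sampled fed, and were chosen for organ weights near the mean. MLKL is the pseudokinase that breaches the cell's outer membrane during necroptosis, and the design asks how its absence alters the liver's response to the diet. The labels say nothing of how the Mlkl allele was made, which cells lack it, the strain or the sex of the mice.

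Major urinary proteins are small lipocalins, barrel-shaped carriers that hold volatile pheromones and other small hydrophobic molecules in a central pocket. Hepatocytes make them in large amounts and secrete them into the blood, from which they pass into the urine as scent signals. The genes lie in a tandem cluster, with a central array of nearly identical copies and more diverged genes toward the edges. Liver transcription of the family is higher in males and depends on pulses of growth hormone acting through STAT5B, and on androgen, thyroid hormone and glucocorticoid. MUP1 has also been studied as a circulating regulator of glucose and lipid metabolism.

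All 7 genes lie on the minus strand of chromosome 4 (mm10, gene bounds from GENCODE M21). Mup7 spans 60066469 to 60070475, Mup1 60498012 to 60501960, Mup12 60737383 to 60741326 and Mup16 61515592 to 61519531. At the far edge Mup20 spans 62050234 to 62054158, Mup3 62083476 to 62087342 and Mup21 62147932 to 62150863. None overlaps another annotated gene. Mup1, Mup12, Mup7 and Mup16 are 98.7% to 99.6% identical to each other over their 543 coding bases. Mup20, which encodes darcin, the male pheromone that attracts females, matches Mup1 at 90.7% of aligned coding bases. Mup3 and Mup21 match each other at 94.8% and Mup1 at 82.8% and 84.1%. The final 90 coding bases of each gene, read in the GENCODE M21 transcripts and ending in the stop codon, show how little separates the copies near the 3' end that the assay reads. Capitals mark bases that differ from Mup1, and Mup12 and Mup7 have the same 90 bases as Mup1.
Mup1: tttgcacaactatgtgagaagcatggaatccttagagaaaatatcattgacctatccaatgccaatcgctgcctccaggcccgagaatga
Mup16: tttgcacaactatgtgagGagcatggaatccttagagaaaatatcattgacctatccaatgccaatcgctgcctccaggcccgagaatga
Mup20: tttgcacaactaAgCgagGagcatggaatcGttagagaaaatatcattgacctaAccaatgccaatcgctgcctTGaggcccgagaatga
Mup3: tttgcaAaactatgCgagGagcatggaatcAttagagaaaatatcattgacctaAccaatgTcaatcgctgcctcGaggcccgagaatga
Mup21: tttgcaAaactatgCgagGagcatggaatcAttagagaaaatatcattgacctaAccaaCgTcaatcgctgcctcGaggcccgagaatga

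Mup16 differs from Mup1 at 1 of these bases, Mup20 and Mup3 at 7 each, and Mup21 at 8. Over the last 300 bases of the transcripts, 100.0% of the 50-base windows of Mup1 and of Mup7 also occur in another Mup gene, as do 82.1% for Mup12 and 87.3% for Mup16. For Mup20, Mup3 and Mup21 the shares are 7.17%, 6.37% and 17.9%. No label states how reads that fit several copies were counted. The single values of Mup1, Mup12, Mup7 and Mup16 are therefore uncertain, and they are read together below. Mup20, Mup3 and Mup21 have mostly windows of their own among the annotated transcripts. The transcripts used for Mup7 and Mup3 stop short of the annotated gene end, and that of Mup21 has 20 bases after the stop codon. The pseudogene Mup-ps19 had 0.713 to 0.859 times the counts of Mup20 in every library. It was not among the 18 Mup genes whose annotated transcripts hold a 50-base window of the Mup20 end. Whether the counts of Mup-ps19 and Mup20 share reads was not tested. Mup12 had 1.02 to 1.13 times the counts of Mup1 in every library, and Mup7 2.12 to 3.31 times. The ratio of Mup16 to Mup1 was not steady, from 0.584 in Mlkl-/- ND replicate 3 to 8.34 in wild-type HFD replicate 1.

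Of the 7 genes, promoter windows were at hand in RefSeq (GRCm38.p6) only for Mup7, Mup3 and Mup21, and these 3 are shown for that reason. Each run gives the 250 bases before the start in RefSeq, 5' to 3' on the gene's own strand, with the letters ATTGAT (on either strand) and TATATAA in capitals.
Mup7, chr4:60070476-60070725, minus strand: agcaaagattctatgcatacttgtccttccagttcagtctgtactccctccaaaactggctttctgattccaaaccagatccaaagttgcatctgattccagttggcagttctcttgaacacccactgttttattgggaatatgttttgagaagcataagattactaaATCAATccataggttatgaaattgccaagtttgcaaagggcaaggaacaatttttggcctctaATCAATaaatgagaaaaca
Mup3, chr4:62087318-62087567, minus strand: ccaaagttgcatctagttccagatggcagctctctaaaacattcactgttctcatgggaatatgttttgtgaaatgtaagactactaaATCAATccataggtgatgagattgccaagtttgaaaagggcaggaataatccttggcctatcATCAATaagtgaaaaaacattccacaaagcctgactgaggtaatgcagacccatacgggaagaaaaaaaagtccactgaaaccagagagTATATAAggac
Mup21, chr4:62150842-62151091, minus strand: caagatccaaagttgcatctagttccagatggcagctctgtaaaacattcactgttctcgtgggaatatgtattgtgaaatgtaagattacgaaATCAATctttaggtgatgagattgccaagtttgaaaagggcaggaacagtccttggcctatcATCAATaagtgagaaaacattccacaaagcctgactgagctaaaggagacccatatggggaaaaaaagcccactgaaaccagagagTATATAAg

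ATTGAT, the core that ONECUT and CUX factors bind, occurs 2 times in each of these windows and in 14 of the 14 Mup windows of the table, against 6.72% of 32851 windows of the same length. The TATA box searched, TATATAA, lies in the windows of Mup3 and Mup21 and in 11 of the 14 Mup windows, against 3.04% of all. GENCODE M21 places the starts of Mup3 and Mup21 upstream of those in RefSeq, so the last 25 and 22 bases of their runs, with the TATATAA match, lie inside the gene bounds given above. TTCNNNGAA, the STAT5 element, was searched on both strands and matched none of the 14, against 7.02% of all windows. The motifs do not overlap each other in the runs shown. A match is a string of letters in this window and no more.

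The 12 libraries held 19435391 to 32120426 counts. Mlkl was counted 72 to 252 times in the 6 wild-type libraries and 9 to 34 times in the 6 Mlkl-/- libraries. The log2 difference was -2.42 ± 0.26 averaged over diets (SE, edgeR adjusted p = 0.00202). On HFD it was -2.71 ± 0.36 (edgeR adjusted p = 0.0166). On ND it was -2.12 ± 0.37 and not called (edgeR adjusted p = 0.144), so that comparison missed even the targeted gene. All libraries carried 1014 to 2731 counts of the Y-linked gene Ddx3y and 0 to 20 of Xist, the transcript of the inactive X. Summed over 8 liver markers, hepatocyte transcripts came to 56036 to 94621 CPM (read counts relative to the library size, here scaled by TMM). The 6 markers of kidney, salivary and lacrimal gland, tissues that also make urinary proteins or receive them, summed to at most 0.0981 CPM, with 5 or 6 of the 6 at 0 in each library. Within the groups, libraries stood apart: wild-type HFD replicate 3 departed from replicates 1 and 2 in each of the 7 Mup genes, so results are given with and without it.

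All 7 genes were at their 2 lowest levels in wild-type HFD replicates 1 and 2, and near the chow level in wild-type HFD replicate 3 and in the 3 Mlkl-/- HFD livers. This pair of libraries lay below the other 10 for 7 of 7 Mup genes, against 5.2% of the 18098 genes tested. The pair was picked out by these same Mup values, and near-identical copies may share reads. The count of 7 is therefore a description and no test. The distance differed among the genes. From the higher of the pair to the next library it was 11.0-fold for Mup7, 8.03-fold for Mup1, 7.68-fold for Mup12 and 3.68-fold for Mup16, but 2.76-fold for Mup21, 2.37-fold for Mup3 and 1.45-fold for Mup20. No Mup gene passed the test in any of the 7 comparisons by edgeR's quasi-likelihood test with Benjamini-Hochberg adjustment over all genes.

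**Figure D1:**
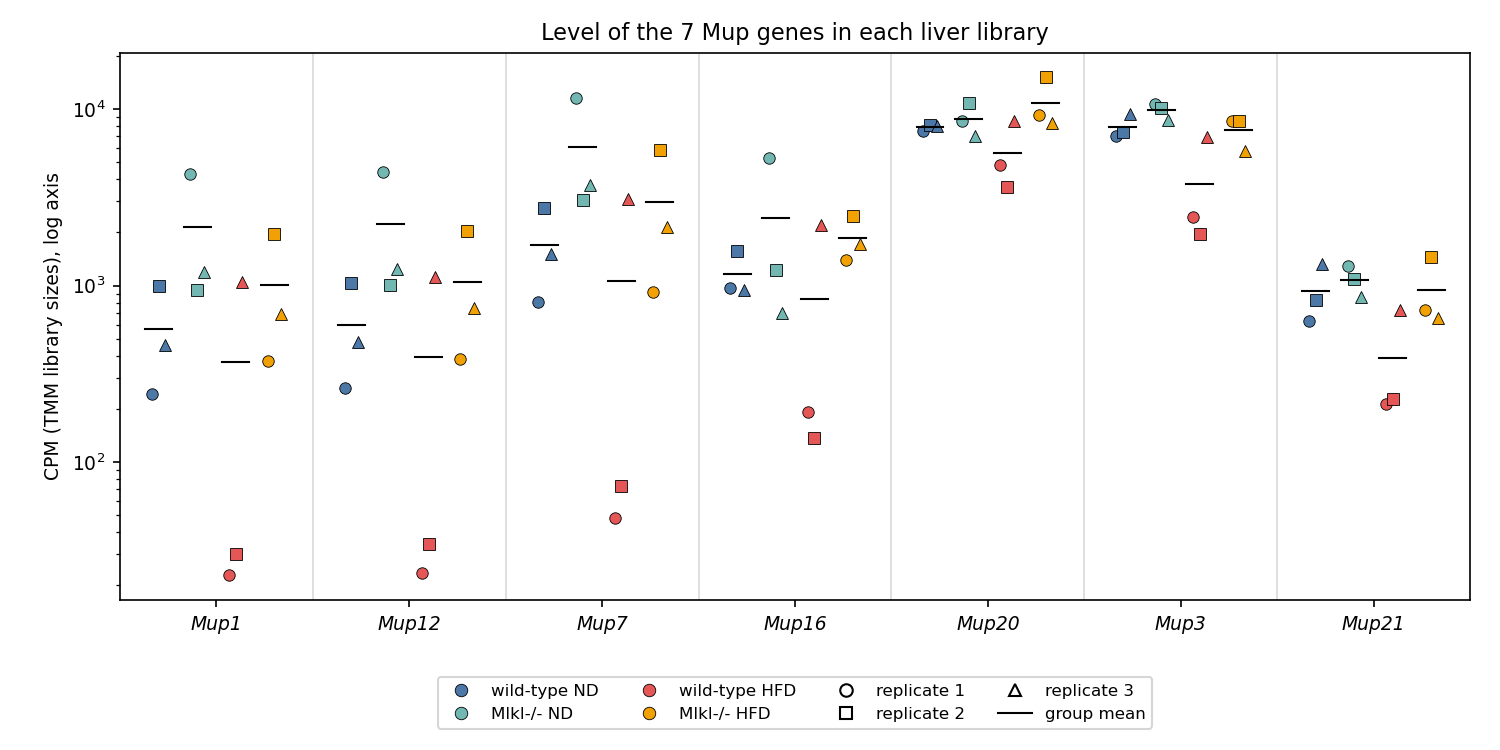
Level of each Mup gene in CPM with TMM library sizes (log axis) in the 12 libraries, coloured by group, with a marker shape for each replicate number and a line at the group mean. The circle and square of wild-type HFD lie lowest for every gene, far below the rest for Mup1, Mup12, Mup7 and Mup16, while the triangle sits among the chow livers.

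Mup1, the best known of the central genes, had 243, 995 and 462 CPM in wild-type ND replicates 1 to 3 and 4279, 944 and 1199 CPM in Mlkl-/- ND. On HFD it had 22.9, 30.3 and 1049 CPM in wild-type and 375, 1962 and 691 CPM in Mlkl-/- livers. The highest library, Mlkl-/- ND replicate 1, exceeded the lowest, wild-type HFD replicate 1, 187-fold, and the groups overlapped in each comparison. Behind the low values stood 571 and 1000 counts, so that counting error is small beside the spread between animals.

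Mup12, a central copy whose counts tracked those of Mup1, had 264, 1040 and 480 CPM in wild-type ND and 4423, 1011 and 1248 CPM in Mlkl-/- ND livers. Its HFD levels were 23.6, 34.4 and 1117 CPM in wild-type and 384, 2029 and 747 CPM in Mlkl-/- livers. The libraries kept the order seen for Mup1, and the groups overlapped.

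Mup7, the central copy with the most counts of the 4, had 805, 2749 and 1508 CPM in wild-type ND and 11475, 3071 and 3729 CPM in Mlkl-/- ND livers. Under HFD the gene had 48.4, 73.5 and 3076 CPM in wild-type and 917, 5880 and 2138 CPM in Mlkl-/- livers. On chow the 3 Mlkl-/- livers all lay above the 3 wild-type livers, as was so for 4.93% of all genes and for none of the other 6. The margin was narrow, 3071 against 2749 CPM. Mup1 and Mup12 fell just short of it, at 944 against 995 CPM and 1011 against 1040 CPM, and these copies may share reads. On HFD the genotypes overlapped through wild-type replicate 3.

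Mup16, a central copy that differs from Mup1 at 5 coding bases, had 967, 1570 and 944 CPM in wild-type ND and 5284, 1222 and 700 CPM in Mlkl-/- ND livers. On HFD it had 191, 137 and 2203 CPM in wild-type and 1396, 2484 and 1731 CPM in Mlkl-/- livers. Mlkl-/- ND replicate 1 again stood highest, 7.54-fold above the lowest library of its group, while the 3 Mlkl-/- HFD livers lay within 1.78-fold of each other.

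Mup20, the darcin gene, was far steadier. It had 7545, 8068 and 7969 CPM in wild-type ND and 8524, 10853 and 7032 CPM in Mlkl-/- ND livers. The HFD livers had 4835, 3612 and 8508 CPM in wild-type and 9206, 15111 and 8294 CPM in Mlkl-/- livers. Its 12 libraries spanned 4.18-fold, with Mlkl-/- HFD replicate 2 highest, and the 3 wild-type ND livers lay within 1.07-fold of each other.

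Mup3, a diverged gene at the edge of the cluster, had 7017, 7452 and 9348 CPM in wild-type ND and 10672, 10130 and 8724 CPM in Mlkl-/- ND livers. On HFD it had 2458, 1964 and 6905 CPM in wild-type and 8536, 8522 and 5815 CPM in Mlkl-/- livers. It was the 1 gene of the 7 whose HFD libraries all lay below the ND libraries of the same genotype, in both genotypes. Of all genes, 15.2% were lower without overlap in wild-type and 7.49% in Mlkl-/- mice. The gaps were narrow, 6905 against 7017 CPM in wild-type and 8536 against 8724 CPM in Mlkl-/- livers. Neither diet difference was called (edgeR adjusted p = 0.132 and 0.701).

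Mup21, its closest relative among the 7, had 633, 828 and 1317 CPM in wild-type ND and 1294, 1085 and 862 CPM in Mlkl-/- ND livers. In HFD livers the values were 213, 229 and 726 CPM in wild-type and 724, 1458 and 653 CPM in Mlkl-/- livers. Wild-type HFD replicate 3 fell between wild-type ND replicates 1 and 2, so the diets overlapped in wild-type mice. The ratio of Mup3 to Mup21 counts stayed between 5.85 and 11.8 over all libraries.

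Since 1 read is drawn from the end of each transcript, CPM was not divided by transcript length, and levels of different genes are set side by side on that scale. By group mean in wild-type ND livers the order was Mup3 at 7939 ± 1240 CPM, Mup20 at 7861 ± 277, Mup7 at 1687 ± 984, Mup16 at 1160 ± 355, Mup21 at 926 ± 353, Mup12 at 595 ± 400 and Mup1 at 567 ± 387 (SD, n = 3). Mup3 and Mup20 did not differ beyond their spread, nor did neighbours among the other 5 genes, and the step from Mup20 to Mup7 was larger than either SD.

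Summed over the 7 genes, a level that does not depend on how reads were divided among these copies, wild-type ND livers had 17475, 22701 and 22029 CPM and Mlkl-/- ND livers 45950, 28317 and 23495 CPM. On HFD the sum was 7792, 6081 and 23583 CPM in wild-type and 21538, 37445 and 20069 CPM in Mlkl-/- livers. Group means were 20735 ± 2843, 32587 ± 11821, 12485 ± 9649 and 26351 ± 9636 CPM (SD, n = 3) in wild-type ND, Mlkl-/- ND, wild-type HFD and Mlkl-/- HFD. The sum lay below every ND library in 2 of the wild-type HFD livers and above wild-type ND in the third. As a share of all counts it ran from 0.705% in wild-type HFD replicate 2 (95% Wilson interval 0.7022% to 0.7083%, counting error only) to 4.24% in Mlkl-/- ND replicate 1 (4.227% to 4.244%).

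The sum over all 49 Mup loci gave the same picture, with 15337, 12210 and 48506 CPM in wild-type HFD and 34252, 45482 and 40396 CPM in wild-type ND livers. Mlkl-/- livers had 100795, 55182 and 42550 CPM on ND and 42105, 74578 and 42008 CPM on HFD. The 7 genes took 45.6% to 55.2% of that sum in each library. The 2 low libraries of the 7 genes were also the 2 lowest for the whole family.

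The makeup of the sum shifted with its size. The 4 near-identical genes Mup1, Mup12, Mup7 and Mup16 gave 3.66% and 4.53% of the 7 genes' counts in wild-type HFD replicates 1 and 2. In the other 10 libraries they gave 13% to 55.4%, with the highest share in Mlkl-/- ND replicate 1. Mup20 and Mup3 together gave 93.6% and 91.7% of the counts in the 2 low libraries. Mup20 had 212 and 119 times the counts of Mup1 there, against 1.99 to 31.0 times elsewhere.

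**Figure D2:**
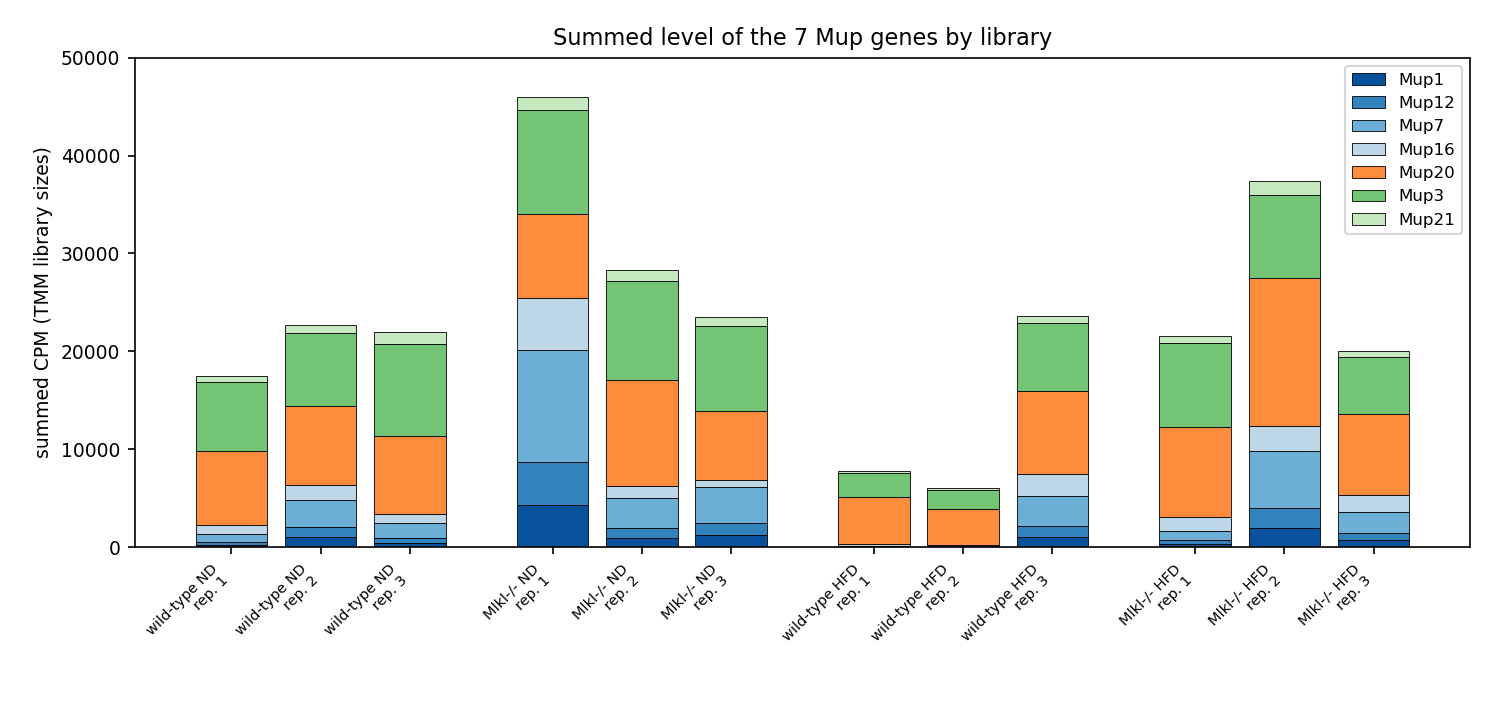
Summed CPM (TMM library sizes) of the 7 Mup genes in each library, stacked by gene. Wild-type HFD replicates 1 and 2 reach 7792 and 6081 CPM and hold almost only Mup20 and Mup3, whereas Mlkl-/- ND replicate 1 reaches 45950 CPM with 55.4% of the counts from the 4 near-identical genes in blue.

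HFD against ND in wild-type mice asks what the diet did in livers that have MLKL. By edgeR 0 of the 7 Mup genes were called at an adjusted p under 0.05, against 4.23% of all genes tested, and 2, Mup3 and Mup21, had an unadjusted p under 0.05, as did 20.5% of all genes. All 7 fitted differences were negative, with a median of -0.63 on the log2 scale against -0.01 over all genes. Mup3 had a mean of 3776 ± 2721 CPM on HFD and 7939 ± 1240 on ND (SD, n = 3), a log2 difference of -1.07 ± 0.38 (SE; edgeR adjusted p = 0.132). Mup21 had a log2 difference of -1.25 ± 0.51 (SE; edgeR adjusted p = 0.202). DESeq2 called Mup3 (adjusted p = 0.0275) and no other of the 7, against 8.6% of all genes, and limma-voom called 0. The groups did not overlap for 1 of the 7, Mup3, against 15.2% of all genes that were lower without overlap.

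The near-identical copies had wide intervals in the same comparison. Mup1 had a fitted log2 difference of -0.63 with a 95% interval of -3.91 to 2.66, and Mup7 -0.66 with -4.03 to 2.71. Mup12 and Mup16 gave -0.60 and -0.46 (edgeR adjusted p = 0.864 and 0.866). Mup20 gave -0.48, with an interval of -1.10 to 0.15. The intervals of Mup1, Mup12, Mup7 and Mup16 hold both a many-fold lower level and a several-fold higher one, so a difference was not detectable with these animals. By limma-voom the same genes gave -2.42, -2.39, -2.72 and -1.52 and were not called, so the fitted size depended on the method.

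Wild-type HFD replicate 3 decided these values. It was singled out by its levels of these same genes, so p-values and calls without it, here and below, are no independent test. Without it, edgeR called Mup3 at -1.84 (adjusted p = 0.00235) and Mup21 at -2.07 (adjusted p = 0.0186) in the diet comparison of wild-type mice, 2 of 7 against 2.87% of all genes in that fit. The other 5 stayed above the threshold, although their differences grew to -4.79 for Mup7, -4.41 for Mup1, -4.36 for Mup12, -2.83 for Mup16 and -0.90 for Mup20. Leaving out wild-type ND replicate 2 instead brought Mup1 to 0.08 and Mup12 to 0.09. Leaving out wild-type HFD replicate 1 or 2 brought Mup16 to 0.01 or 0.05.

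**Figure D3:**
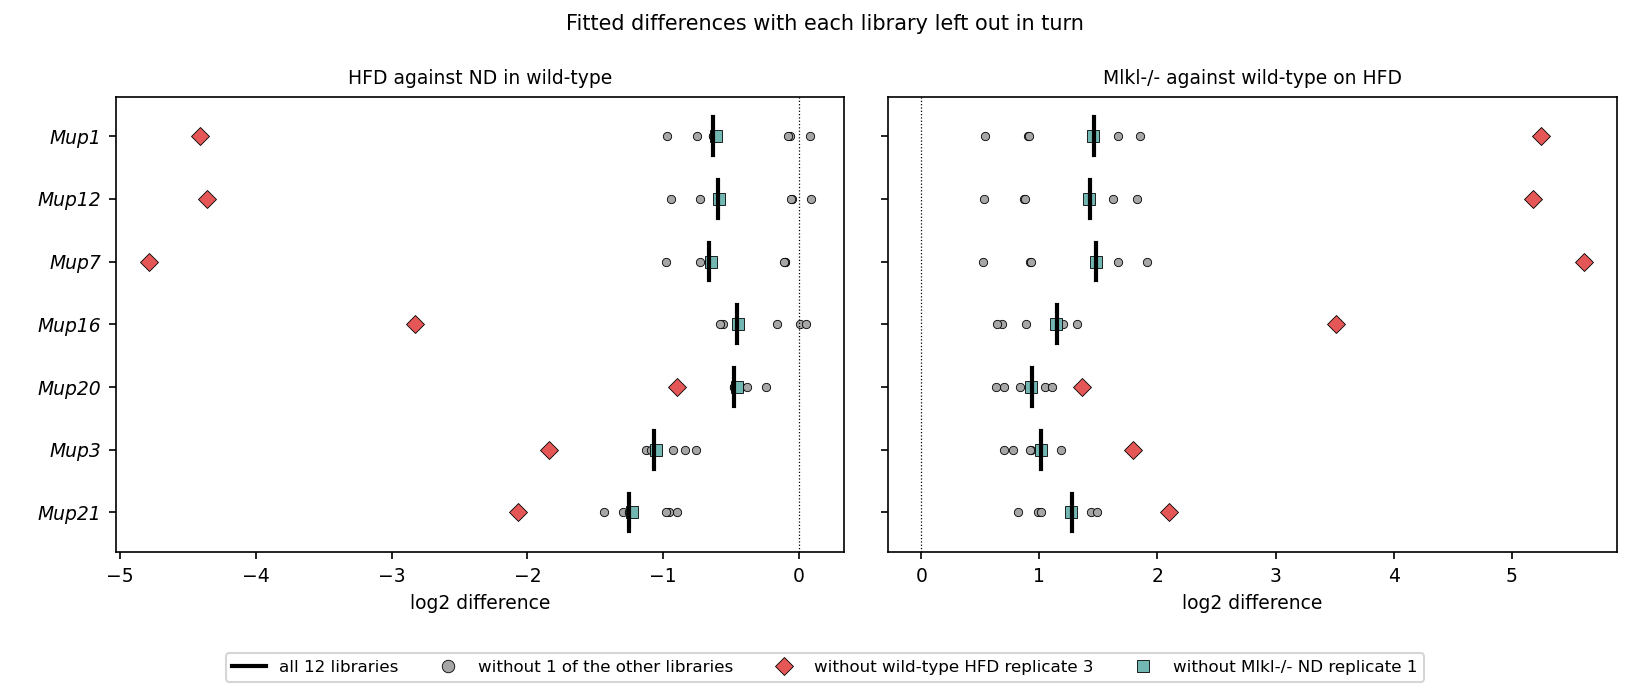
Fitted log2 differences of each Mup gene with all 12 libraries (black bar) and with each library left out in turn (points), for the diet comparison in wild-type mice and for the genotype comparison on HFD. The red diamonds, without wild-type HFD replicate 3, lie farthest from the bar for every gene, down to -4.79 for Mup7 on the left and up to 5.61 on the right.

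HFD against ND in Mlkl-/- mice asks the same of livers without MLKL. By edgeR 0 of 7 were called, against 0.359% of all genes, and 0 of the 7 had an unadjusted p under 0.05, against 13.6% of all. DESeq2 and limma-voom also called 0 of the 7. Mup20 had a mean of 10870 ± 3701 CPM on HFD and 8803 ± 1926 on ND (SD, n = 3), a log2 difference of 0.30 ± 0.29 (SE). The other 6 were negative, from -0.19 for Mup21 to -1.08 for Mup1, with edgeR adjusted p from 0.679 to 0.914 over the 7. Mup3 did not overlap between the diets, as was so for 7.49% of all genes that were lower. The negative values of the near-identical copies drew on Mlkl-/- ND replicate 1: without it Mup1 moved from -1.08 to -0.06 and Mup16 from -0.36 to 0.98.

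Mlkl-/- against wild-type on ND gave positive differences for all 7, with a median of 1.05 on the log2 scale. By edgeR 0 of 7 were called, against 0.00553% of all genes, and 0 had an unadjusted p under 0.05, against 5.51% of all. DESeq2 and limma-voom also called 0. Mup1 gave 1.92 ± 1.48 (SE) and Mup7 1.85 ± 1.51, while Mup20 gave 0.16 ± 0.29, Mup21 0.22 ± 0.50 and Mup3 0.31 ± 0.37. The mean of Mup7 was 6092 ± 4674 CPM in Mlkl-/- against 1687 ± 984 in wild-type livers, and the absence of overlap for Mup7 compares with 4.93% of all genes that were higher. Without Mlkl-/- ND replicate 1, Mup1 gave 0.91, Mup7 1.00 and Mup16 -0.29.

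Mlkl-/- against wild-type on HFD asks whether the genotypes differed in livers under the diet. By edgeR 0 of 7 were called, against 0.0276% of all genes, and 3, Mup20, Mup3 and Mup21, had an unadjusted p under 0.05, as did 15.5% of all genes. All 7 differences were positive, with a median of 1.28 against 0.01 over all genes. Mup20 gave 0.94 ± 0.30 (SE; edgeR adjusted p = 0.179), with means of 10870 ± 3701 and 5652 ± 2548 CPM (SD, n = 3). Mup3 gave 1.01 ± 0.38 (edgeR adjusted p = 0.238) and Mup21 1.28 ± 0.51 (edgeR adjusted p = 0.275). Wild-type HFD replicate 3 lay among the Mlkl-/- libraries for each of these genes. DESeq2 called Mup20 alone (adjusted p = 0.0478), 1 of 7 against 2.18% of all genes, and limma-voom called 0. By limma-voom all 7 had an unadjusted p under 0.05, from 0.00446 to 0.0251, as did 2846 of 18098 genes.

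Wild-type HFD replicate 3 was left out for its levels of these genes, so the calls that follow are no independent test. Without it, edgeR called Mup20 at 1.36 (adjusted p = 0.038), Mup3 at 1.79 (adjusted p = 0.00615) and Mup21 at 2.10 (adjusted p = 0.0354) for genotype on HFD. They were 3 of 7, against 1.02% of all genes in that fit. Mup1, Mup12, Mup7 and Mup16 then gave 5.25, 5.18, 5.61 and 3.51 with adjusted p from 0.075 to 0.106 by edgeR, and were not called. In the edgeR fit of all 12 libraries the same 4 genes gave 1.46, 1.43, 1.48 and 1.15. By limma-voom with all 12 they gave 3.14, 3.10, 3.32 and 2.20.

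**Figure D4:**
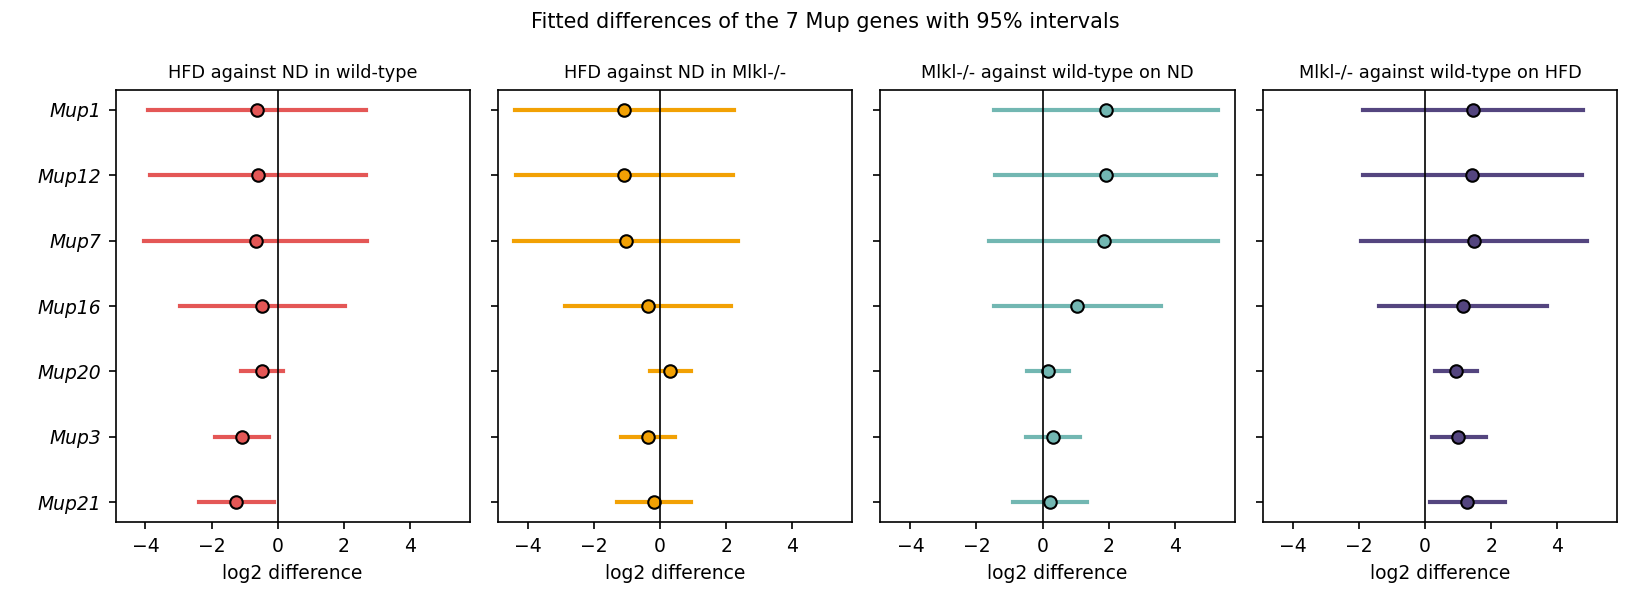
Fitted log2 differences of the 7 Mup genes with 95% intervals (bars) in the 4 simple comparisons, from edgeR with all 12 libraries. Intervals of Mup1, Mup12, Mup7 and Mup16 span several log2 units and hold 0 in each panel, and those of Mup20, Mup3 and Mup21 are narrower and exclude 0 on HFD between genotypes, before adjustment over genes.

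The diet responses of the genotypes were not shown to differ. The interaction gave 0 of 7 called by edgeR, DESeq2 and limma-voom, where edgeR called 0.0% of all genes, and 0 of the 7 had an unadjusted p under 0.05, against 10.4% of all. Mup20 gave an interaction of 0.78 ± 0.42 (SE; edgeR adjusted p = 0.533), Mup21 1.06 ± 0.71 and Mup3 0.70 ± 0.53. Mup1, Mup12 and Mup7 gave -0.46, -0.48 and -0.37 and Mup16 0.10, with intervals of several log2 units on either side of 0. The signs of Mup1, Mup12, Mup7 and Mup16 turned under single alternatives: without wild-type HFD replicate 3, Mup7 gave 3.76, and without Mlkl-/- ND replicate 1 it gave 0.48.

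Averaged over genotypes, the diet difference was negative for all 7, from -0.09 for Mup20 to -0.86 for Mup1. By edgeR 0 of 7 were called, against 7.19% of all genes, and Mup3 alone had an unadjusted p under 0.05, against 22.0% of all, at -0.72 ± 0.26 (SE; edgeR adjusted p = 0.126). DESeq2 called Mup3, against 10.8% of all genes, and limma-voom 0 of the 7. Without wild-type HFD replicate 3 edgeR called Mup7, Mup3 and Mup21 (adjusted p = 0.0454, 0.00158 and 0.0235), 3 of 7 against 5.51% of all genes. Averaged over diets, the genotype difference was positive for all 7, from 0.55 ± 0.21 (SE) for Mup20 to 1.69 ± 1.04 for Mup1. By edgeR 0 of 7 were called, against 0.0166% of all genes, and DESeq2 and limma-voom also called 0. Unadjusted p was under 0.05 by edgeR for Mup20 and Mup3, as for 10.6% of all genes. By limma-voom it was so for all 7, against 1976 of 18098 genes. Without wild-type HFD replicate 3, Mup3 was called at 1.05 (edgeR adjusted p = 0.0164), 1 of 7 against 0.178% of all genes. These comparisons share libraries, so their counts are not separate evidence. Calls without wild-type HFD replicate 3 rest on leaving out a library for its Mup values.

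The libraries were also divided by codes in their titles and by a level seen in the data. Codes in the titles, which no label explains, are 23 and 27 on ND and 25 and 29 on HFD. Code 23 was pooled here with 25, and 27 with 29, a pairing that no label states. Under codes 23 and 25 the summed level was 7792 CPM in the 1 wild-type HFD liver, 17475 and 22701 CPM in wild-type ND, 45950 CPM in the 1 Mlkl-/- ND liver and 21538 and 37445 CPM in Mlkl-/- HFD livers. Under codes 27 and 29 it was 6081 and 23583 CPM in wild-type HFD, 22029 CPM in wild-type ND, 28317 and 23495 CPM in Mlkl-/- ND and 20069 CPM in Mlkl-/- HFD livers. The highest liver of the 12 thus fell under code 23. Of the 2 low libraries, wild-type HFD replicate 1 had code 25 and replicate 2 had code 29. Code 29 also holds the wild-type HFD liver at the chow level. Whether the codes bear on the Mup levels was not tested apart from diet, since no code occurs on both diets.

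At 8 loci, mainly small RNA annotations with Lars2, 6 libraries held 3484 to 9239 raw CPM in sum and 6 held 377.8 to 656.5. Wild-type HFD replicate 1 was at the low level and replicate 2 at the high one. With this level as a term, edgeR gave -3.65 for Mup1, -3.85 for Mup7 and -2.55 for Mup16 in the diet comparison of wild-type mice, against -0.63, -0.66 and -0.46 without it, and called 0 of the 7 in any comparison. All wild-type ND libraries were low and all Mlkl-/- HFD libraries high at these loci, so this level and the groups cannot be fully told apart.

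Other Mup genes, counted by the same pipeline, went with the 7. Of the other 15 protein-coding copies, all were tested, 14 had wild-type HFD replicates 1 and 2 as their 2 lowest libraries, and 0 were called in any comparison by edgeR. Mup5 was the exception to the ordering, with 78.6, 18.2 and 69.7 CPM in wild-type HFD and 77.5 CPM in the first wild-type ND liver. Of 21 tested pseudogenes, 7 had the same 2 lowest libraries. Mup-ps19, the most abundant of them, had 0.713 to 0.859 times the counts of Mup20 in every library.

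Male-biased liver genes outside the family shared the low libraries in part. Of 20 such genes, chosen with earlier results of these data known, 14 had wild-type HFD replicates 1 and 2 as their 2 lowest libraries, against 5.2% of all genes. In wild-type mice 4 of the 20 fell on HFD and 0 rose by edgeR, with a median of -1.08 on the log2 scale against -0.01 over all genes. For this and each list below, 4.23% of all genes were called in that comparison. Serpina1e, a male-biased antitrypsin copy, fell by 3.08 ± 0.45 (SE; edgeR adjusted p = 0.00778), from 11753 ± 910 to 1392 ± 434 CPM (SD, n = 3). Gstp2 and Gstp1, glutathione transferases with near-identical sequences, fell by 1.91 and 1.78, and the glucuronosyltransferase gene Ugt2b1 fell by 1.05.

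In Mlkl-/- mice 0 of the 20 were called for diet by edgeR, against 0.359% of all genes, with 7 at an unadjusted p under 0.05, against 13.6%, and a median of -0.78. Serpina1e there gave -1.79 ± 0.43 (SE; edgeR adjusted p = 0.102). Between genotypes on HFD edgeR called 0 of the 20, against 0.0276% of all genes, 8 had an unadjusted p under 0.05, against 15.5%, and the median was 0.84. Their summed level was 3754 and 3035 CPM in wild-type HFD replicates 1 and 2, 5836 CPM in replicate 3 and 5383 to 13627 CPM in Mlkl-/- HFD livers. Unlike the Mup sum, it lay below every ND library, which had 17181 to 24239 CPM, in all 6 HFD livers. Serpina1e alone had 11151 to 15791 CPM in ND livers, so the sum mostly follows that gene. A mean log2 deviation, each gene taken against its own mean, weights the genes equally. By it Mlkl-/- HFD replicate 2, at 0.66, lay above the wild-type ND livers, at 0.20 to 0.61.

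Of 15 tested female-biased genes, 3 fell and 1 rose on HFD in wild-type mice by edgeR. The 3 were the near-identical cytochromes Cyp3a44, Cyp3a41a and Cyp3a41b at -2.75, -2.71 and -2.68, and the flavin monooxygenase gene Fmo2 rose by 0.91. The list's median was 0.92, opposite in sign to that of most of its called genes. None of the 15 had the 2 low Mup libraries as its 2 lowest. By the mean log2 deviation, the 15 tested genes together were instead highest in those 2 libraries, with values of 0.84 and 1.09. The value was -0.44 for wild-type HFD replicate 3 and at most 0.43 over the other 10 libraries. The summed level of all 18 listed genes, 560 and 618 CPM in the 2 libraries, lay within the 278 to 1238 CPM of the other 10. For diet averaged over genotypes, edgeR called 3 of the 15 higher and 4 lower on HFD, with a median of 1.46. Of all genes, 7.19% were called in that comparison.

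The growth hormone to STAT5 axis drives the family in male liver. Of its 13 listed genes, from the receptor to its targets, 1 rose and 0 fell on HFD in wild-type mice by edgeR, against 4.23% of all genes, with a median of -0.06. That gene was Stat5a, from 14.1 ± 2.71 to 24.5 ± 0.607 CPM (SD, n = 3), a log2 difference of 0.79 ± 0.21 (SE; edgeR adjusted p = 0.0467). Ghr, the receptor, gave -0.08 ± 0.19 and Igf1, the circulating growth factor it induces, -0.34 ± 0.19. Of 16 transcription factors and hormone receptors tied to Mup or sex-biased transcription, 0 were called by edgeR in the diet comparison of wild-type mice and 4 had an unadjusted p under 0.05, against 20.5% of all genes. Hnf4a, the hepatocyte nuclear receptor, had 452 ± 48.1 CPM on ND and 297 ± 10.5 on HFD, at -0.60 ± 0.16 (SE; edgeR adjusted p = 0.0509). Averaged over genotypes, Trim24, a nuclear receptor cofactor, rose by 0.66 ± 0.15 on HFD (SE; edgeR adjusted p = 0.0174).

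Lipocalin carriers outside the family and other secreted proteins held called genes in wild-type mice. Of 10 tested lipocalins outside the family, Apom, an HDL apolipoprotein, fell by 0.84 and Ambp, the precursor of alpha-1-microglobulin, by 0.64 on HFD. Of 20 abundant secreted hepatocyte proteins, 10 fell and 0 rose by edgeR, with a median of -0.66. They included the antitrypsin copies Serpina1c, Serpina1d and Serpina1a at -1.35, -1.26 and -1.22 and Fgb, a fibrinogen chain, at -1.21. Fgb went from 5214 ± 503 to 2257 ± 334 CPM (SD, n = 3), a smaller spread than that of any Mup gene in wild-type HFD livers relative to its mean. Only 2 of the 20 had the 2 low Mup libraries as their 2 lowest.

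**Figure D5:**
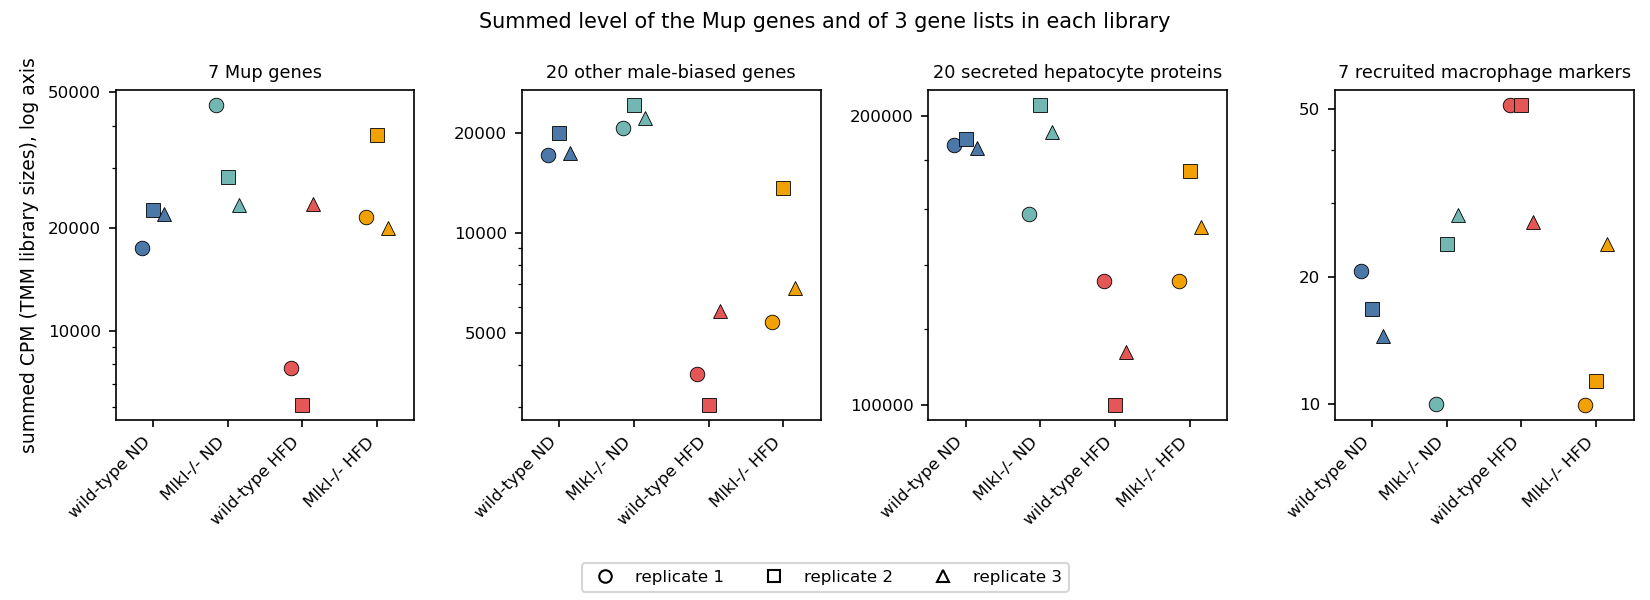
Summed CPM (TMM library sizes, log axes with a range of their own in each panel) of the 7 Mup genes, 20 other male-biased genes, 20 secreted hepatocyte proteins and 7 recruited macrophage markers in each library. Wild-type HFD replicates 1 and 2 (red circle and square) are the 2 lowest for the Mup and male-biased sums and the 2 highest for the macrophage markers, at 51.1 and 51.2 CPM.

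Markers of other liver cells moved with the low Mup libraries. The 7 markers of recruited macrophages summed to 51.1 and 51.2 CPM in wild-type HFD replicates 1 and 2, 27 CPM in replicate 3 and 9.92 to 28.1 CPM over the other 10 libraries. In the diet comparison of wild-type mice 3 of the 7 rose by edgeR, namely Gpnmb, Cx3cr1 and Ccr2 at 4.14, 2.15 and 1.83. The 6 stellate cell markers summed to 294 and 240 CPM in the 2 low Mup libraries and to 144 to 200 CPM in the other 10, and the 6 Kupffer cell markers to 246 and 224 against 78.8 to 205 CPM. The 6 endothelial markers summed to 239 and 177 against 82.3 to 169 CPM. One of them, Dnase1l3, a secreted DNase, rose by 0.60 on HFD in wild-type mice (edgeR adjusted p = 0.0359) and was lower in Mlkl-/- than in wild-type livers on HFD, at -1.17 (edgeR adjusted p = 0.0166), where 0.0276% of all genes were called. Apart from Dnase1l3 and the 3 macrophage genes, no tested gene of the marker lists was called by edgeR in these 2 comparisons. The 5 cholangiocyte markers summed to 65.2 and 125 CPM, the first within and the second above the range of the other 10. The 5 adipose markers (0.88 and 16.9 against 0.473 to 19.9 CPM) and the 5 lymphocyte markers (2.36 and 4.46 against 1.9 to 7.9 CPM) lay within that range. Apart from up to 2 adipose markers, no marker in these lists was at 0 in a library. The 8 hepatocyte markers summed to 77456 and 56036 CPM in the 2 low libraries and 62264 CPM in replicate 3. In RNA from whole liver, fewer cells of a type and less RNA per cell cannot be told apart, and the part of these markers in the Mup levels was not tested. The TMM factors of the 2 libraries, 1.11 and 1.16, were the 2 highest of the 12. With plain library sizes in place of TMM, the log2 difference of the summed Mup level was -0.56 instead of -0.73 for diet in wild-type mice and 0.92 instead of 1.08 for genotype on HFD, and edgeR again called 0 of the 7 in any comparison.

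Outside the family, the genes most like the summed Mup level over the 12 libraries were taken by Pearson's r of log2 CPM among 9328 named genes with a mean of at least 5 CPM. Serpine2, a protease inhibitor, had r = 0.96, followed by the pseudogene Impdh2-ps at 0.95 and by Saysd1, Gjb1 and Snx22 at 0.94 each. Gjb1 encodes connexin 32, the main gap junction protein of hepatocytes. The lowest were Tceal8 and Tnfaip1 at -0.92 and Zfp704 at -0.91. These values are the extremes of a ranking and are given as a description over 12 libraries. Without wild-type HFD replicates 1 and 2, the 2 libraries farthest from the median, r over the other 10 was 0.81 for Serpine2, 0.74 for Gjb1 and -0.62 for Tceal8. Serpine2 had 6.56, 5.03 and 16.1 CPM in wild-type HFD livers and 13.5 to 26.6 CPM elsewhere. Of the 8 genes, Tceal8 alone was called, at 1.75 in the diet comparison of wild-type mice (edgeR adjusted p = 0.0453) and at 1.17 averaged over genotypes (0.0415).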

How the data were processed

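QuantSeq 3' libraries (Lexogen) of liver RNA were sequenced on a NextSeq instrument, per the labels' protocols. The submitters' processing notes list limma, featureCounts, HISAT2 and cutadapt 1.9, and the build mm10. The authors deposited counts of reads per gene as whole numbers, not normalized. No source used here gives the annotation, the strand setting or the treatment of reads that fit several genes. A symbol was found for 51633 of 51912 identifiers and a position for 51719.

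Genes were tested with edgeR 4.0.16 in R 4.3.3: filterByExpr (minimum 10 counts, 15 in total), which left 18098 genes, TMM factors (0.922 to 1.16), 1 mean per group with 8 residual degrees of freedom, robust quasi-likelihood dispersions, and Benjamini-Hochberg adjustment over all genes, with calls at 0.05. The SE of a fitted log2 difference was derived from the test, as its absolute size over the square root of the F statistic. The 95% intervals used that SE and the t distribution with the test's degrees of freedom. Nothing in the labels says more of the replicates than separate animal numbers. The fit was tested on simulated data. The number of reads limits little here: the fewest counts of any of the 7 genes were 571.

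Members, gene lists and tests were chosen with earlier results of these data known. Besides the 7 genes, the text names up to 4 called genes of each list per comparison by size and, for lists with 1 call or none, up to 2 of the most abundant. It also names the 5 genes most like and the 3 least like the Mup sum. Marker genes, Mup5, Mup-ps19 and the genes of the closing section were chosen after their values were seen. Alternatives were other scalings and filters, DESeq2 1.42.0, limma-voom 3.58.1, non-robust dispersions, fits restricted to the groups compared, 2 library terms, and leaving out each library.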

Additional observations from a re-analysis of the deposited data

How the results depend on the processing

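Of 798 alternative values of the 7 genes in 5 comparisons, 760 kept direction and side of the threshold, 31 turned sign and 7 passed the threshold. Members called went from 0 to 1 with DESeq2 for diet in wild-type mice, genotype on HFD and diet averaged. Leaving out single libraries gave 0 to 2, 0 to 3 and 0 to 3 for these, and 0 to 1 for genotype averaged, the higher value always without wild-type HFD replicate 3. The summed level's log2 differences then ran from -1.58 to -0.40 for diet in wild-type mice (-0.73 with all libraries), 0.74 to 1.93 for genotype on HFD (1.08) and 0.08 to 1.27 for the interaction (0.43). Signs turned with limma-voom for the interaction of Mup1 (1.33), Mup12 (1.30) and Mup7 (1.55) and for Mup16 on diet in Mlkl-/- mice (0.13). They turned with the 8-locus term for the interaction of Mup1 (0.61), Mup12 (0.58) and Mup7 (0.65) and for Mup16 (-0.30) and Mup21 (-0.04) by genotype on ND, and with the title code term for the interaction of Mup16 (-0.17). Leave-one-out ranges that cross 0 were, for diet in wild-type mice, -4.41 to 0.08 (Mup1), -4.36 to 0.09 (Mup12) and -2.83 to 0.05 (Mup16). For diet in Mlkl-/- mice they were -0.80 to 0.98 (Mup16) and -0.63 to 0.01 (Mup21), and for genotype on ND -0.29 to 1.49 (Mup16) and -0.02 to 0.30 (Mup20). For the interaction they were -1.38 to 3.33 (Mup1), -1.38 to 3.28 (Mup12), -1.34 to 3.76 (Mup7) and -0.41 to 2.46 (Mup16). The cause was not tested. No paired analysis was possible because the titles number the animals singly and replicate numbers follow accession order.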

Other observations

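Some Mup pseudogenes did not follow the 7 genes. Averaged over genotypes, Mup-ps16, Mup-ps12, Mup-ps14 and Mup-ps10 rose on HFD by edgeR, at 1.10 ± 0.20, 1.76 ± 0.39, 1.44 ± 0.37 and 1.09 ± 0.26 on the log2 scale (SE), with adjusted p of 0.00629, 0.0204, 0.0379 and 0.0215. They are 4 of 21 tested pseudogenes, against 7.19% of all genes called in that comparison, and their levels are low. Mup-ps16, the most abundant of the 4, had 8.03, 7.31 and 12.3 CPM in wild-type ND, 7.12, 4.78 and 2.80 CPM in Mlkl-/- ND, 14.6, 17.3 and 16.3 CPM in wild-type HFD and 15.5, 10.0 and 13.1 CPM in Mlkl-/- HFD livers. The 3 wild-type HFD livers were alike here, in contrast to the protein-coding copies.

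Mup-ps20 was low in all 3 wild-type HFD livers, at 0.36, 0.303 and 1.83 CPM, and in Mlkl-/- ND replicate 3, at 1.34 CPM. The other 8 libraries had 51.1 to 636 CPM. The diet difference in wild-type mice was not called (-7.47; edgeR adjusted p = 0.0794).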
